A study of Mus musculus with 27 samples.

Results

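Integrins and laminins are the receptors and ligands that tie cells to the basement membrane, and their genes were followed here in mouse livers given carbon tetrachloride (CCl4). The members were the protein-coding mouse genes whose symbols are those of integrin alpha chains (Itga), integrin beta chains (Itgb) and laminin alpha, beta and gamma chains (Lama, Lamb, Lamc), with numbered or single-letter names. By this rule 34 genes of the 55414 in the count table are described, of which 24 were integrins and 10 laminins. An average over libraries of 10 or more counts was reached by 29 of them, namely 13 of 16 integrin alpha chains, 7 of 8 integrin beta chains, 4 of 5 laminin alpha chains, 3 of 3 laminin beta chains and 2 of 2 laminin gamma chains. Itgam and Itgax, the alpha chains of myeloid cells, are not covered by the rule and are described only as a comparison.

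Polyadenylated RNA was measured in whole livers of 27 female Balb/c mice, aged 8 weeks at the start. The design set side by side mice that did or did not receive CCl4, a hepatotoxin given by intraperitoneal injection for 2 weeks, in 4 arms of treatment. Mice without CCl4 were the control (n = 4), 4MU (n = 3), siLuc-LNP (n = 3) and siHAS2-LNP (n = 3) groups, and mice with it were the CCl4 (n = 2), CCl4 + 4MU (n = 4), CCl4 + siLuc-LNP (n = 4) and CCl4 + siHAS2-LNP (n = 4) groups. 4MU (4-methylumbelliferone, an inhibitor of hyaluronan synthesis) was gavaged daily at 600 mg/kg, and siRNAs in lipid nanoparticles (LNP) were injected repeatedly into the tail vein, at 1 mg/kg first and at 0.5 mg/kg later. siHAS2 targets hyaluronan synthase 2 and siLuc, against luciferase, has no target gene in the mouse. By the labels, all mice without CCl4 were injected with olive oil and the control mice also with PBS, and the study's methods describe a gavage of carboxymethyl cellulose as the control of 4MU.

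An integrin is a dimer of 1 alpha and 1 beta chain that spans the membrane, and a laminin is a trimer of 1 alpha, 1 beta and 1 gamma chain that is secreted and assembles into sheets. The beta1 chain pairs with most alpha chains, among them those that bind laminin (alpha3, alpha6, alpha7) and collagen (alpha1, alpha2), whereas alpha v and alpha5 dimers bind the RGD sequence of fibronectin and other matrix proteins, and beta2 and beta7 dimers are found on leukocytes. In the normal liver, the sinusoids lack a continuous basement membrane, while bile ducts and larger vessels have one. Laminin is known to accumulate along sinusoids in fibrosis, and several alpha v dimers activate latent TGF-beta.

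The upstream sequences of 3 members that passed the threshold under CCl4 in every arm (Lama5, Lamb2 and Itga3) are shown as examples of the 5 members that did so. They are from RefSeq promoter windows on GRCm38.p6, of the 250 bases before an annotated start, cut to the longest stretch outside annotated GENCODE exons, which were located by matching each window to GRCm39. For Itga6 and Lamc1, which also passed in every arm, no sequence is shown. Capitals mark a box of GGGCGG or of CCAAT, read on both strands. The stretch of Lama5 is chr2:180225920-180226109 on the minus strand and ends 60 bases before the start, that of Lamb2 is chr9:108479612-108479735 on the plus strand and ends 126 bases before it, and that of Itga3 is chr11:95069199-95069448 on the minus strand, directly before a start that lies inside the gene.
Lama5: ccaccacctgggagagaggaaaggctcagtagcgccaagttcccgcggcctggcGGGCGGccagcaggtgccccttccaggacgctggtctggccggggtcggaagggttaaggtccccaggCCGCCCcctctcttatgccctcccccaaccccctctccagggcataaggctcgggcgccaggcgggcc
Lamb2: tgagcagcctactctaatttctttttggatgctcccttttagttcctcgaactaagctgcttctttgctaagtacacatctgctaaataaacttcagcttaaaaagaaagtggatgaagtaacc
Itga3: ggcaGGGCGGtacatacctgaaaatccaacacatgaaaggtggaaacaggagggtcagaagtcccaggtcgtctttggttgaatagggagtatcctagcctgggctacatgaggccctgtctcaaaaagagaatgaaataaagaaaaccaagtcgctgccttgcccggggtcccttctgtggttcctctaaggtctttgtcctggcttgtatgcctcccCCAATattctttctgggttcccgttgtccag
Windows of 250 bases were found for 18 of the 29 tested members, 20 windows in all. GGGCGG was in 8 of the 20 windows (40%) and in 32.7% of the 32851 windows of all genes, and CCAAT was in 3 (15%) and in 33.8%. The AP-1 letters TGANTCA were in 0 of the 20 and in 6.75% of all, the TEAD letters GGAATG were in 2 (10%) and in 12.6%, and TATAAA was in 0 and in 12.4%. Matches on either strand were counted once per window, and these motifs did not overlap in the printed stretches.

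Total counts were 7044386 to 29425937 per library, so 3 counts corresponded to 0.104 to 0.400 CPM (counts scaled to a common TMM-scaled library total), and values under this limit carry counting error of that size. The lowest total was that of CCl4 + siHAS2-LNP mouse 4, and the next lowest was 18146198. CCl4 + siLuc-LNP mouse 3 differed most from its group mates, with a chi-square of counts per degree of freedom of 318.5 to 415.6 in pairs with them. Other pairs of mice of one group had 15.28 to 119.9. The livers carried hepatocyte transcripts throughout, with 69150 to 197400 CPM summed over 6 hepatocyte genes. Has2, the target of siHAS2, had 0 counts in 25 of the 27 libraries and 1 or 2 in the other two, so the knockdown cannot be read from these libraries. CCl4 + 4MU mouse 4 stood apart in 2 of the 5 bile duct genes examined, Krt19 and Epcam. Krt19 was 92.5 CPM there and 0.645 to 6.13 CPM in the 13 other CCl4 mice, and Epcam was 19.6 against 0.848 to 2.39 CPM. Calls of members that were lost or gained without this mouse, and called changes of members that moved by over 1.5 times, are given with and without it. Scaling also matters in these livers: with library totals in place of TMM, the median log2 fold change of all tested genes in CCl4 against control moved from -0.02 to 0.39, and the changes below are relative to the TMM scale.

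Levels between genes were compared per kilobase of exon (CPM per kb). The length was that of the merged exons of all annotated transcripts of a gene (15715 bases for Lama4 and 11448 for Lama5). The order of genes therefore depends on the annotation. In the 13 mice without CCl4, the most abundant members were the beta chains Itgb1, with a median of 20.6 CPM per kb (15.9 to 24.3), and Itgb5, the partner of alpha v, with 15.7 (11.3 to 18.2). Itga5, the alpha chain of the fibronectin receptor, followed at 7.50 (4.82 to 9.78), a range that did not overlap with those of both beta chains. The next were Itga9 (2.79), Itgb2 (2.44), Itgal (2.41), Itga7 (1.75), Itgav (1.62), Itga3 (1.58) and Itga1 (1.52), whose ranges overlapped. Of the laminins, Lamc1, the gamma chain of most laminins, was highest at 1.17 CPM per kb (0.691 to 1.72), then Lamb1 at 0.658 (0.440 to 1.09) and Lamb2 at 0.569 (0.338 to 1.02). The alpha chains were lower, with Lama1 at 0.375, Lama5 at 0.200, Lama4 at 0.0879 and Lama2 at 0.0526. Itgb4, Itga2, Lamc3 and Itgb8 had medians of 0.0209 to 0.0383 CPM per kb. In the 14 CCl4 mice Itgb1 and Itgb5 were again highest, with medians of 26.3 and 18.1 CPM per kb, and Lamb2 (1.41) stood above Lamb1 (0.992), with overlapping ranges.

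**Figure D1:**
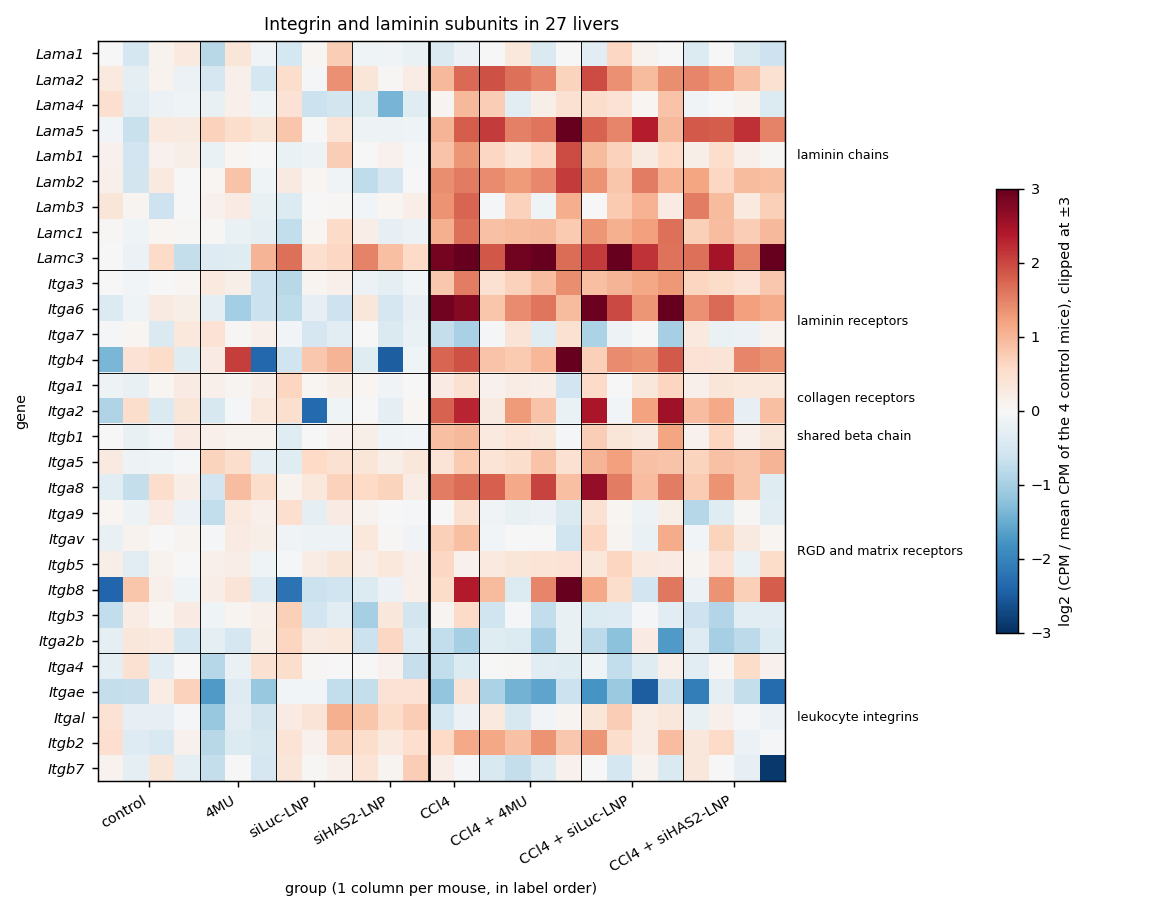
Level of the 29 tested members (rows, grouped by role) in each of the 27 livers (columns, grouped by treatment), as log2 of CPM over the mean CPM of the 4 control mice; values are clipped at the ends of the colour scale. Rows of Itga6, Itga3, Lama5 and Lamc1 are redder in all 14 CCl4 mice than in the 13 others, and rows such as Lama1, Itga9 and Itga4 show little contrast.

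Under CCl4, averaged over the 4 arms, 8 of the 9 tested laminin chains and 11 of the 20 tested integrin chains rose. Among the receptors of laminin, Itga6, Itga3, Itgb4 and Itgb1 rose in this average while Itga7 did not pass, and Itgb4 passed in 0 of the single arms. In the quasi-likelihood F test of edgeR, with p adjusted across all tested genes by the Benjamini-Hochberg method, 19 of the 29 tested members were higher and 1 was lower, where 51.9% of all 14114 tested genes passed, 26.3% higher and 25.6% lower. The laminins had a median log2 fold change of 1.15 with 0 lower, and the integrins one of 0.28 with 1 lower. The median over all members was 0.56, against -0.02 over all tested genes. Itga6, Itga3, Lama5 and Lamc1 were higher in each of the 14 CCl4 mice than in any of the 13 others. How many of all tested genes were apart in this way was not counted. In bulk liver RNA, more cells of a type and more RNA per cell cannot be told apart. With library totals in place of TMM, 20 members were higher and 1 lower, and all tested genes split into 5386 higher and 1838 lower in place of 3711 and 3608.

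**Figure D2:**
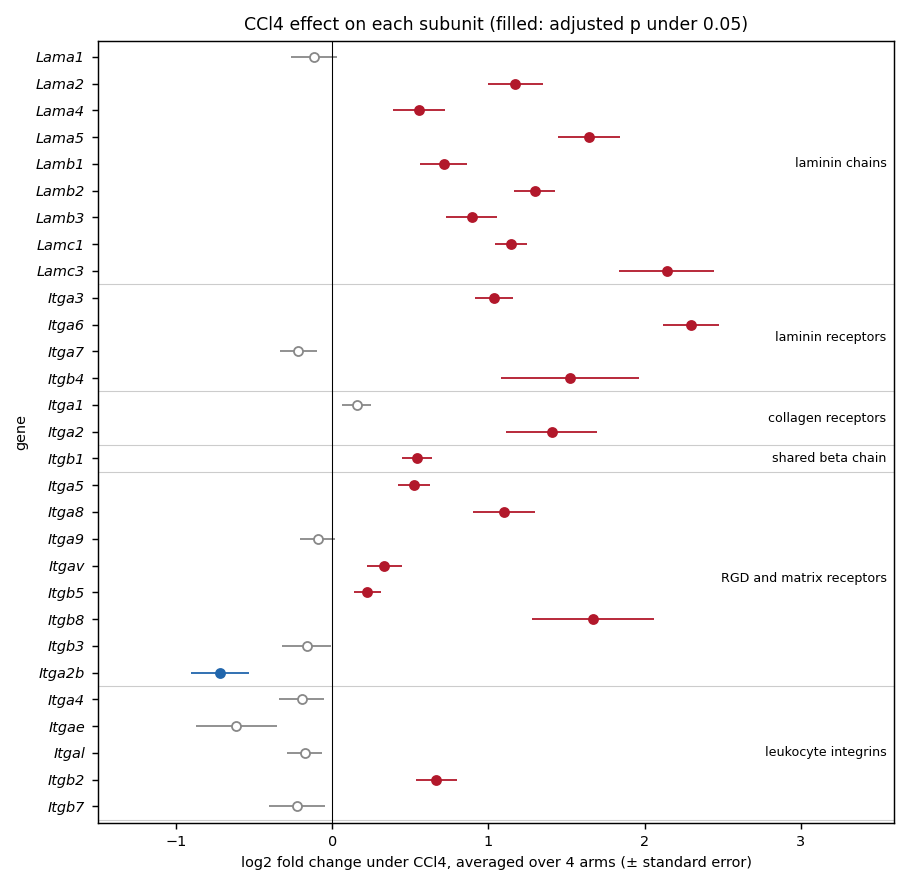
Log2 fold change of each tested member under CCl4, averaged over the 4 arms (x axis, points with standard errors), with genes grouped by role (y axis); filled points passed the threshold, red higher and blue lower. Laminin chains other than Lama1 lie to the right of 0, Itga6 lies farthest right at 2.299, and Itga2b is the filled point to the left.

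Among the laminin alpha chains, Lama5, the chain of the laminins of mature epithelial and vascular basement membranes, ranged from 1.18 to 3.37 CPM (median 2.29) in the 13 mice without CCl4 and from 3.70 to 20.2 CPM (median 6.52) in the 14 with it. The groups did not overlap, and its log2 fold change was 1.64 (standard error, SE, 0.20; adjusted p = 2.28e-07). Lama2, the chain of muscle and mesenchymal laminins, went from a median of 0.939 CPM (0.607 to 2.24) to 2.28 CPM (1.2 to 3.37), a rise of 1.17 on the log2 scale, with some overlap. Lama4, the endothelial chain, was close between the groups, at 0.613 to 2.24 CPM without CCl4 and 1.2 to 3.16 with it. Its change of 0.56 passed (adjusted p = 0.00678) but did not without CCl4 mouse 2 (0.43, adjusted p = 0.051). Lama1, the chain of embryonic basement membranes, did not pass, with medians of 3.64 CPM without CCl4 and 3.65 with it.

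The beta chains Lamb1 and Lamb2 are alternatives in the trimer. Lamb2 went from 2.06 to 6.24 CPM (median 3.46) without CCl4 to 5.32 to 14.9 CPM (median 8.59) with it, and only the upper end of the first range, 4MU mouse 2, overlapped with the second. Its log2 fold change was 1.297 (SE 0.13, adjusted p = 1.26e-08). Lamb1 changed less, from a median of 7.06 CPM (4.72 to 11.7) to 10.6 CPM (7.201 to 26.98), a log2 fold change of 0.71. Lamb3, a beta chain of epithelial laminins, rose by 0.89 from a median of 2.42 CPM (1.54 to 3.05) to 3.96 CPM (2.14 to 7.90). Lama3, the alpha chain of the same trimer, stayed under the count minimum.

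Of the gamma chains, Lamc1 was 7.83 to 19.5 CPM (median 13.3) without CCl4 and 21.5 to 40.7 CPM (median 25.6) with it, so the groups did not overlap, and the log2 fold change was 1.15 (SE 0.10, adjusted p = 2.1e-09). Lamc3 was 0.123 to 0.628 CPM and 0.561 to 2.56 CPM, a log2 fold change of 2.14 (SE 0.30, adjusted p = 2.35e-06), with overlapping ranges. Lamc3 was near the depth limit of 3 counts in the mice without CCl4, so its fold rests on few reads.

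Of the receptors for laminin, Itga6 had the largest change of all members. This alpha chain pairs with beta1 or beta4 and lies on chromosome 2 from 71575960 to 71689757 (GRCm39). It was 0.663 to 1.70 CPM (median 1.13) in the mice without CCl4 and 2.41 to 12.2 CPM (median 3.84) in those with it, a log2 fold change of 2.299 (SE 0.18, adjusted p = 1.22e-10). Itga3, on chromosome 11 from 94935296 to 94967682, was 5.14 to 11.1 CPM (median 9.17) and 12.3 to 26.4 CPM (median 16.6), a log2 fold change of 1.04 (SE 0.12, adjusted p = 1.25e-07). Neither gene overlapped between the 14 and 13 mice. Itgb4, which pairs with alpha6 alone and forms hemidesmosomes in epithelia, was 0.0471 to 1.09 CPM and 0.341 to 5.86 CPM, with a log2 fold change of 1.52 (SE 0.44, adjusted p = 0.00591). Its mean was 16.3 counts per library, and it passed in 0 of the single arms. In the 4MU arm the change of Itgb4 was 1.86, and -0.07 without CCl4 + 4MU mouse 4. It passed there without 4MU mouse 2 or CCl4 + 4MU mouse 1, 2 or 3 (adjusted p 0.02554 to 0.04855 by edgeR). Itga7, the laminin receptor of muscle, did not pass in the average, with medians of 14.5 CPM without CCl4 and 13.7 with it.

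**Figure D3:**
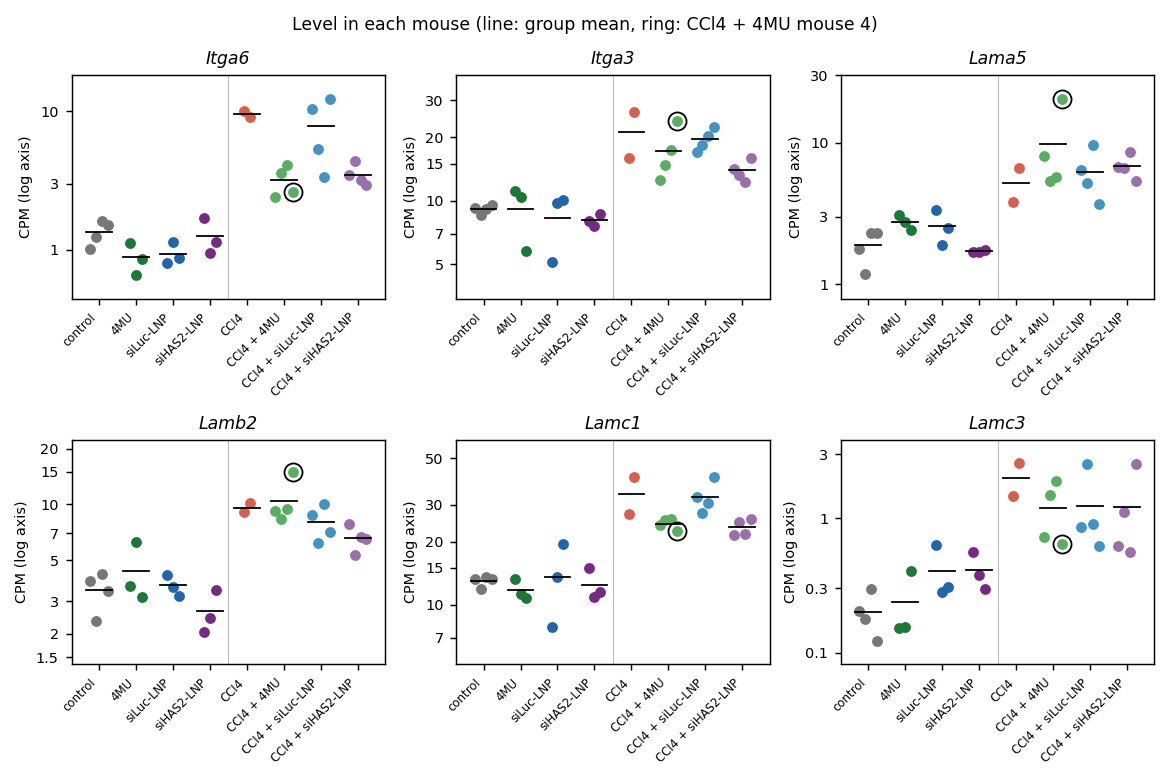
CPM of 6 members in each mouse (y axis, log scale) by group (x axis), with a line at the group mean and a ring around CCl4 + 4MU mouse 4. Itga6, Itga3, Lama5 and Lamc1 lie higher in each CCl4 mouse than in any mouse without CCl4, and Itga6 lies lower in the CCl4 + 4MU and CCl4 + siHAS2-LNP mice than in the CCl4 mice.

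Of the collagen receptors, Itga2 rose and Itga1 did not pass. Itga2 was 0.0569 to 0.413 CPM without CCl4 and 0.240 to 1.66 CPM with it, with a log2 fold change of 1.41 (SE 0.29, adjusted p = 0.000263), at a mean of 11.7 counts per library. Itga1, which is far more abundant per kilobase (median 1.52 against 0.0383 CPM per kb without CCl4), was 26.7 to 48.6 CPM and 20.6 to 48.5 CPM (log2 fold change 0.16, adjusted p = 0.159). Without CCl4 + 4MU mouse 4, which had the lowest Itga1, the change was 0.20 and passed (adjusted p = 0.0429). Their shared partner Itgb1 went from a median of 123 CPM (95.1 to 145) to 157 CPM (117 to 274), a rise of 0.54 on the log2 scale (adjusted p = 4.56e-05).

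The receptors of RGD and other matrix ligands were mixed. Itga8, the partner of beta1 on stellate and smooth muscle cells, rose by 1.10, from a median of 3.42 CPM (1.65 to 5.19) to 7.39 CPM (2.13 to 16.9). Itga5 rose by 0.52, from 39.9 CPM (25.6 to 52.0) to 59.2 CPM (44.0 to 77.1). Itgb8, which with alpha v activates latent TGF-beta, rose by 1.67 (SE 0.39, adjusted p = 0.000994) at low counts, 0.0508 to 0.472 CPM without CCl4 and 0.180 to 3.09 CPM with it. Itgav and Itgb5 passed with small changes, 0.33 and 0.22, and their groups overlapped. The call of Itgb5 (adjusted p = 0.0318) was lost, with adjusted p of 0.0529 to 0.12, without control mouse 2, 4MU mouse 3, CCl4 mouse 1, siHAS2-LNP mouse 3 or siLuc-LNP mouse 1. Itgb3, another partner of alpha v, and Itga9 did not pass. Beside these, 8 of 10 tested stellate cell and myofibroblast genes were higher and 1 lower, where 26.3% of all tested genes were higher and 25.6% lower. The largest changes were those of Timp1 (4.104), Col1a1 (4.06) and Acta2 (2.67), and the summed level of the 10 was 235 to 444 CPM without CCl4 and 354 to 1166 CPM with it. The part of cell numbers in the change of Itga8 was not tested.

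Itga2b, the platelet alpha chain that pairs with beta3, was the member that fell. It was 2.74 to 6.68 CPM (median 4.81) without CCl4 and 1.31 to 5.10 CPM (median 2.54) with it, and fell by 0.72 on the log2 scale (adjusted p = 0.00219), with overlap. Of 6 genes of platelets and megakaryocytes 2 could be tested, of which Ppbp was lower (-1.73) and Pf4 did not pass, and the summed level of the 6 was 1.60 to 10.9 CPM without CCl4 and 1.68 to 4.78 with it. Gp9 was at 0 counts in CCl4 + 4MU mouse 1 and CCl4 + siHAS2-LNP mouse 4. The part of platelets in the Itga2b level was not tested.

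Of the leukocyte integrins, the beta chain Itgb2 rose and its alpha chain Itgal did not pass. Itgb2 was 4.04 to 11.8 CPM (median 7.93) and 6.37 to 18.4 CPM (median 11.8), a log2 fold change of 0.67 (SE 0.13, adjusted p = 0.000158). Its value by arm was 0.90 against control and 1.62 with 4MU, which passed, and 0.37 with siLuc-LNP and -0.23 with siHAS2-LNP, which did not. Itgal, the alpha chain of LFA-1 on lymphocytes, had a log2 fold change of -0.17 (adjusted p = 0.198). Itgam and Itgax, the myeloid partners of beta2, were both higher, by 1.85 and 2.90, and their summed level was 0.614 to 2.50 CPM without CCl4 and 3.73 to 22.1 CPM with it. Itga4, Itgb7 and Itgae, the chains of lymphocyte homing, did not pass, with Itgae at -0.61 (adjusted p = 0.0506) and a mean of 10 counts. Itgae was past the threshold, as lower, when any one of control mouse 1 or 2, 4MU mouse 1, CCl4 mouse 2, CCl4 + 4MU mouse 4, siHAS2-LNP mouse 1, CCl4 + siHAS2-LNP mouse 2, siLuc-LNP mouse 3 or CCl4 + siLuc-LNP mouse 4 was left out (adjusted p 0.0178 to 0.0421). In the same livers 3 of 5 tested monocyte and neutrophil genes (Ccr2, Ly6c2 and Lyz2) were higher and 0 lower, and of 6 tested lymphocyte genes 0 were higher and 1, Cd79a, lower. Of all tested genes 26.3% were higher and 25.6% lower. The part of leukocyte numbers was not tested.

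CCl4 + 4MU mouse 4 was the highest or the lowest of the 14 CCl4 mice in several members. Itgb4 was 5.86 CPM there and 0.341 to 0.978 in the 13 other CCl4 mice, and Itgb8 was 3.09 against 0.180 to 1.39 CPM. Lama5 was 20.2 CPM against 3.70 to 9.60, Lamb1 26.98 against 7.201 to 17.5, and Lamb2 14.9 against 5.32 to 10.2. Itga7 was also highest, at 20.8 against 7.69 to 19.8 CPM. Itgb1 (117 against 133 to 274 CPM), Itgav (13.2 against 17.4 to 42.6) and Itga1 (20.6 against 30.6 to 48.5) were lowest there. Itga6, the partner of Itgb4, was near the low end at 2.60 against 2.41 to 12.2 CPM, and Lamb3 lay within the range (5.05 against 2.14 to 7.90). Of the cholangiocyte genes, Krt19 and Epcam were highest in this mouse, but Krt7 (4.44 CPM against 0.665 to 5.95), Sox9 (4.94 against 2.75 to 14.5) and Spp1 (147 against 103 to 676) lay within the range of the other CCl4 mice. Cholangiocyte genes were higher under CCl4 as a list (5 of 5 tested, 0 lower, led by Spp1 at 2.43, Krt19 at 1.99 and Krt7 at 1.58), where 26.3% of all tested genes were higher. Their summed level was 29.5 to 77.3 CPM without CCl4 and 109 to 692 CPM with it. Most of this sum was Spp1, at 23.3 to 65.4 CPM without CCl4 and 103 to 676 CPM with it. These list values include CCl4 + 4MU mouse 4, with 92.5 CPM of Krt19, and are not given without it. Without this mouse the averaged log2 fold change was 1.04 for Itgb4 (adjusted p = 0.00729), 1.36 for Itgb8, 1.49 for Lama5 and 0.59 for Lamb1, and each of these 4 still passed. The part of bile duct tissue in these levels was not tested.

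Within each arm the CCl4 effect was compared with the same treatment without CCl4. In CCl4 against control, 16 of 29 members passed (15 higher, 1 lower), where 34.0% of all tested genes passed. In CCl4 + 4MU against 4MU it was 11, all higher, where 23.7% passed, in CCl4 + siLuc-LNP against siLuc-LNP 12 (11 higher, 1 lower), where 24.2% passed, and in CCl4 + siHAS2-LNP against siHAS2-LNP 6 (5 higher, 1 lower), where 12.8% passed. With library totals the first split was 19 higher and 0 lower, and the last was 7 higher and 0 lower. All tested genes then split into 4936 higher and 915 lower in the first, in place of 2537 and 2268. In the last they split into 1703 and 341, in place of 1093 and 719. The median log2 fold change of the members was 0.90, 0.42, 0.68 and 0.30 in the order of the 4 arms above. Itga6, Itga3, Lama5, Lamb2 and Lamc1 were higher in all 4 arms, Itga8 and Lamc3 in 3, and 10 members passed in none. When certain single mice were left out, Itga3 and Itga6 lost the call of the siHAS2-LNP arm and Lama5 that of the siLuc-LNP arm, as given below. The number of arms in which a gene passed was not counted over all tested genes. The log2 fold change of Itga6 was 2.81 against control, 1.85 with 4MU, 3.06 with siLuc-LNP and 1.47 with siHAS2-LNP, each with a standard error of 0.35 to 0.37. For Lama5 the values were 1.46, 1.85, 1.26 and 2.01, of which the value with 4MU was 1.22 (adjusted p = 0.00662) without CCl4 + 4MU mouse 4. For Lamc1 they were 1.38, 1.04, 1.26 and 0.90.

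**Figure D4:**
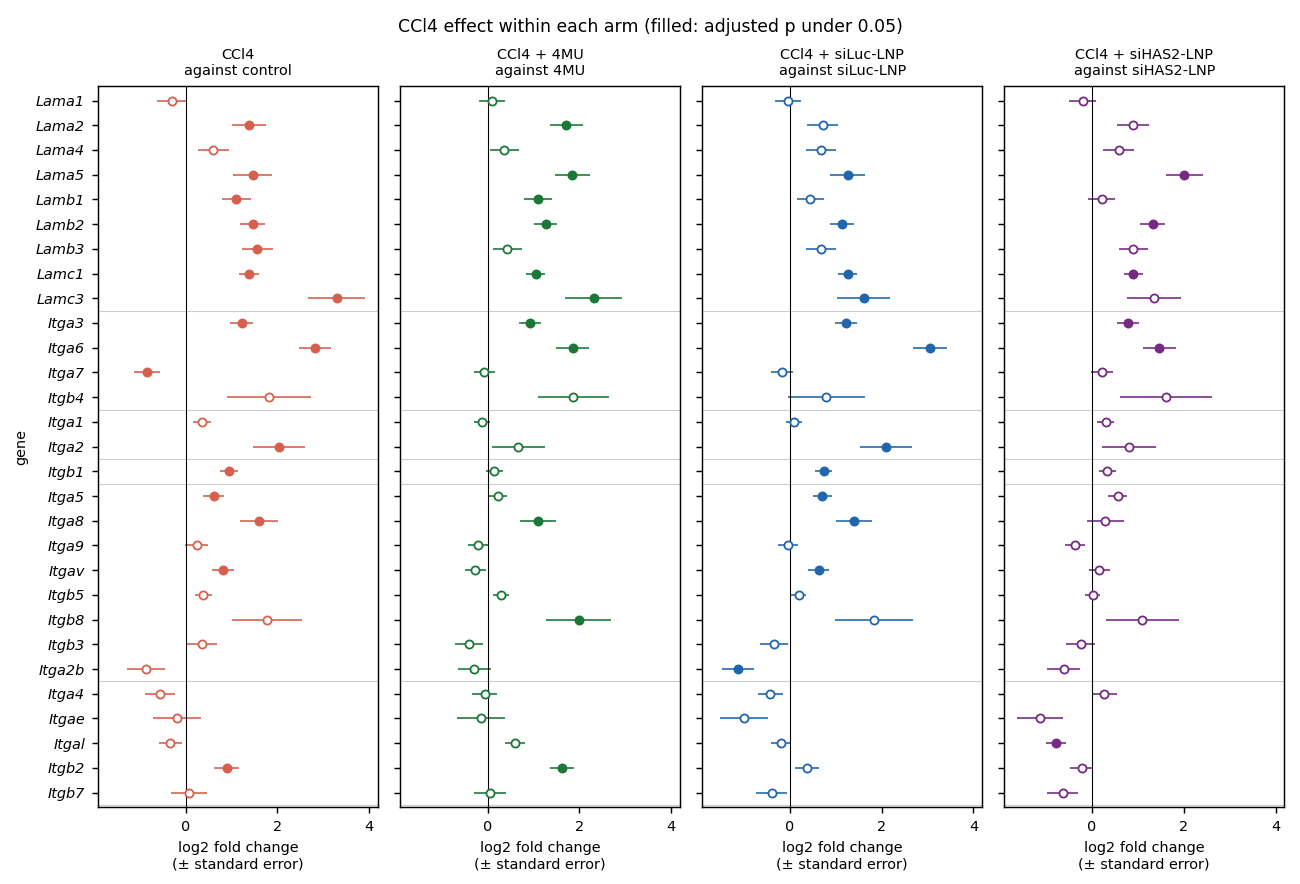
Log2 fold change of the 29 tested members under CCl4 in each arm (4 panels, x axis with standard errors), in the same order of genes (y axis); filled points passed the threshold. Itga6, Itga3, Lama5, Lamb2 and Lamc1 are filled to the right of 0 in each panel, and the panel of siHAS2-LNP has the fewest filled points, 6.

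Of the members that passed in CCl4 against control, the largest changes were those of Lamc3 (3.29, SE 0.62, adjusted p = 0.000254), Itga6, Itga2 (2.04, adjusted p = 0.00725), Itga8 (1.60), Lamb3 (1.56), Lamb2 (1.47), Lama5 and Lamc1. Itgb4 (1.81, adjusted p = 0.127) and Itgb8 (1.77, adjusted p = 0.0763) had changes of this size and did not pass. The other 7 higher members (Lama2, Itga3, Lamb1, Itgb1, Itgb2, Itgav and Itga5) had log2 fold changes of 0.61 to 1.37. Itga7 was lower, at 9.29 and 7.75 CPM in the CCl4 mice and 14.5, 15.9, 11.3 and 19.1 CPM in the control mice, a fall by 0.84 on the log2 scale (adjusted p = 0.0212). With library totals the value for Itga7 was -0.43 and did not pass (adjusted p = 0.135). The CCl4 group had 2 mice, and without CCl4 mouse 2 the count was 6 in place of 16. The 10 members lost then (Itga2, Itga3, Itga5, Itga7, Itga8, Itgav, Itgb2, Lama2, Lama5 and Lamb1) had adjusted p of 0.0519 to 0.316, with the lone remaining mouse assumed to vary as the other groups do. Itga5 was also lost without control mouse 2, 3 or 4 (adjusted p 0.0606 to 0.0767), and Itga7 without CCl4 mouse 1 (0.0513) or control mouse 4 (0.0582).

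In the 4MU arm, Itgb2 was higher by 1.62 (adjusted p = 8.79e-05), at 16.1, 13.2, 18.4 and 12.6 CPM in the CCl4 + 4MU mice and 4.04, 5.46 and 5.16 CPM in the 4MU mice. Lamc3 (2.31), Itgb8 (1.98), Lama2 (1.71), Lamb2 (1.26), Itga8 and Lamb1 (1.10 each) and Itga3 (0.92) also passed. Without CCl4 + 4MU mouse 4, Itgb8 was 0.76 (adjusted p = 0.429) and Lamb1 0.60 (adjusted p = 0.0743), and both calls were lost. Itgb8 was lost as well without any of the 3 4MU mice (adjusted p 0.0898 to 0.148). Itga8 was lost without 4MU mouse 1 or 3 or CCl4 + 4MU mouse 1 or 3 (adjusted p 0.09 to 0.182), and Itga3 without 4MU mouse 3 (0.0622).

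In the siLuc-LNP arm, Itga2 (2.1), Lamc3 (1.61), Itga8 (1.403), Itga3 (1.23), Lamb2 (1.14), Itgb1 (0.74), Itga5 (0.71) and Itgav (0.63) passed beside Itga6, Lamc1 and Lama5, and Itga2b was lower by 1.12 on the log2 scale (-1.12, adjusted p = 0.0207). Single mice decided 7 of these, which were lost with adjusted p of 0.0553 to 0.216. They were Itgav (without any siLuc-LNP mouse or CCl4 + siLuc-LNP mouse 1 or 4), Itga2 (without siLuc-LNP mouse 2), Itga2b (without siLuc-LNP mouse 1 or CCl4 + siLuc-LNP mouse 2 or 4), Itga5 and Itga8 (both without siLuc-LNP mouse 1, Itga8 also without CCl4 + siLuc-LNP mouse 1), Lama5 (without siLuc-LNP mouse 2 or 3 or CCl4 + siLuc-LNP mouse 3) and Lamc3 (without siLuc-LNP mouse 2 or 3 or CCl4 + siLuc-LNP mouse 2, where it was 0.97).

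In the siHAS2-LNP arm, Lama5 (adjusted p = 0.00153), Itga6 (0.00679), Lamb2 (1.32, adjusted p = 0.00156), Lamc1 (0.00466) and Itga3 (0.78, adjusted p = 0.0316) were higher, all with edgeR's test and Benjamini-Hochberg adjustment. Itgal was lower, at 11.5, 14.7, 12.9 and 11.7 CPM in the CCl4 + siHAS2-LNP mice and 23.6, 19.6 and 22.3 CPM in the siHAS2-LNP mice (-0.78, adjusted p = 0.0182). Itga3 was lost without siHAS2-LNP mouse 1, 2 or 3 or CCl4 + siHAS2-LNP mouse 1, 2 or 4 (adjusted p 0.0518 to 0.116), Itgal without siHAS2-LNP mouse 1 or 3 (0.0738 and 0.0579) and Itga6 without siHAS2-LNP mouse 2 (0.0506).

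To see which members differed with treatment in livers given CCl4, each treated group was set against the 2 CCl4 mice, which all 3 comparisons share. With 4MU, Itga6 was 2.41, 3.59, 4.098 and 2.60 CPM, against 10.01 and 9.11 CPM in the CCl4 mice. It fell by 1.59 on the log2 scale (-1.59, SE 0.34, adjusted p = 0.00305), and the groups did not overlap. Its partner Itgb1 fell by 0.68 (adjusted p = 0.0228), from 227 and 240 CPM to 150, 161, 155 and 117 CPM. Itgav fell by 0.96 (adjusted p = 0.009), from 32.6 and 37.0 CPM to 18.9, 20.1, 19.7 and 13.2 CPM. Lamb3 fell by 1.07 (adjusted p = 0.0288), from 5.98 and 7.90 CPM to 2.28, 3.79, 2.14 and 5.05 CPM. Itga7 rose by 0.98 (adjusted p = 0.0169), from 9.29 and 7.75 CPM to 14.8, 19.8, 11.8 and 20.8 CPM. Without CCl4 + 4MU mouse 4 the log2 fold changes were -1.503 for Itga6, -0.83 for Itgav, -1.35 for Lamb3 and 0.86 for Itga7 (adjusted p = 0.012, 0.0323, 0.0133 and 0.0498), all still past the threshold, while Itgb1 was not (-0.59, adjusted p = 0.07). In this comparison 5 of 29 members passed, 1 higher and 4 lower, where 18.3% of all tested genes did, and with library totals 1 was higher and 9 lower. All tested genes then split into 488 higher and 3220 lower, in place of 1168 and 1412.

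With siHAS2-LNP, Itga6 was 3.48, 4.39, 3.17 and 2.93 CPM and fell by 1.44 against the same CCl4 mice (SE 0.34, adjusted p = 0.00784). Itgb1 was 133, 188, 135 and 157 CPM and fell by 0.61 (adjusted p = 0.0474), and Itga7 was 18.6, 13.2, 13.5 and 16.3 CPM and rose by 0.86 (adjusted p = 0.0401). These 3 of 29 members passed, 1 higher and 2 lower, where 14.4% of all tested genes passed, and with library totals 0 were higher and 5 lower. All tested genes then split into 587 higher and 1459 lower, in place of 1003 and 1035. The median log2 fold change of the members was -0.59 with siHAS2-LNP and -0.07 with 4MU, against 0.02 and 0.04 over all tested genes. With siLuc-LNP, 0 of 29 members passed, where 0.248% of all tested genes did, 2 members had an unadjusted p under 0.05, and DESeq2 and limma-voom also called 0. There the log2 fold change was -0.28 for Itga6, -0.26 for Itgb1 and 0.39 for Itga7, and Itga6 was 10.3, 5.36, 3.36 and 12.2 CPM.

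These calls rested on the CCl4 mice. Without CCl4 mouse 2, the members passing with 4MU numbered 1, Itga6, in place of 5, and Itga7, Itgav, Itgb1 and Lamb3 had adjusted p of 0.124 to 0.268. With siHAS2-LNP 0 passed without that mouse, and Itga6 was -1.53 (adjusted p = 0.0754). Itgb1 with 4MU was also lost without CCl4 mouse 1 (0.0554), and Lamb3 without CCl4 + 4MU mouse 1 or 3 (0.077 and 0.0687). With siHAS2-LNP, Itgb1 and Itga7 were both lost without CCl4 mouse 1 or CCl4 + siHAS2-LNP mouse 1, 3 or 4 (adjusted p 0.0513 to 0.109). In the same livers, 6 of 6 proliferation genes were lower with 4MU and 3 of 6 with siHAS2-LNP, and 1 of 10 and 4 of 10 stellate cell and myofibroblast genes were lower. Of all 14114 tested genes, 1412 were lower and 1168 higher with 4MU, and 1035 lower and 1003 higher with siHAS2-LNP. The 1 of 10 with 4MU was near the share of all tested genes. Hepatocyte genes were higher in 3 of 6 with 4MU and in 1 of 6, Cyp2e1, with siHAS2-LNP. Their summed levels were 69150 and 122100 CPM in the CCl4 mice and 143200 to 170600 CPM with 4MU, which did not overlap, and 105400 to 159400 CPM with siHAS2-LNP, which did. The part of these cell types and of proliferation in the changes of Itga6 and Itga7 was not tested.

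**Figure D5:**
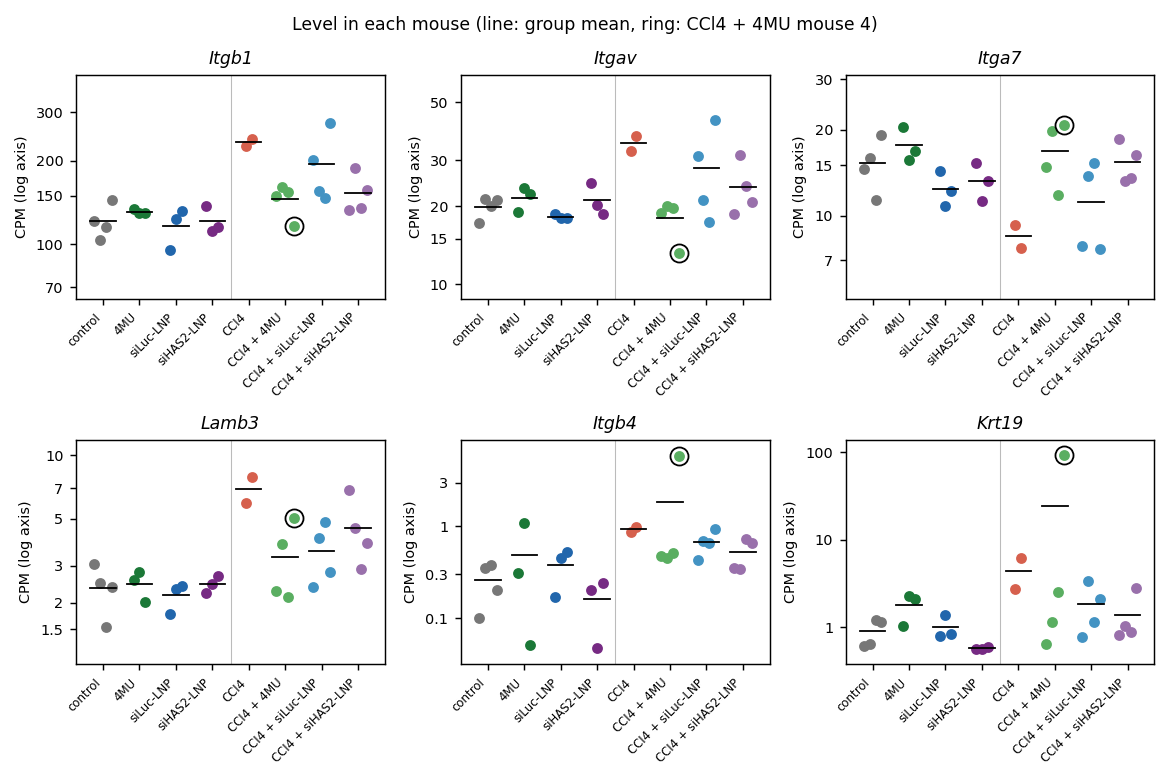
CPM of 5 members and of the bile duct keratin Krt19 in each mouse (y axis, log scale) by group (x axis), with a line at the group mean and a ring around CCl4 + 4MU mouse 4. In Itgb1 and Itgav the 2 CCl4 mice lie higher than the 4 CCl4 + 4MU mice, in Itga7 lower, and the ringed mouse is the highest in Itgb4 and Krt19.

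Against CCl4 + siLuc-LNP, the nanoparticle control, CCl4 + siHAS2-LNP changed 0 of 29 members, where 1.09% of all tested genes passed. Itga6 was nearest, at -1.16 (SE 0.29, adjusted p = 0.0522), and 9 members had an unadjusted p under 0.05. DESeq2 called 1, Itga6 (-1.19, adjusted p = 0.0142), and limma-voom 0. Itga6 also passed when CCl4 + siLuc-LNP mouse 2 or 3 was left out (adjusted p 0.0455 and 0.0191). Between CCl4 + 4MU and CCl4 + siHAS2-LNP 0 passed, where 1.22% did, 5 had an unadjusted p under 0.05, and DESeq2 and limma-voom each called 1, Itgb2 (0.84 in both, adjusted p = 0.0278 and 0.0173). Itgb2 was 12.6 to 18.4 CPM with 4MU and 6.37 to 10.8 CPM with siHAS2-LNP, so these mice did not overlap.

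In mice without CCl4, 0 members passed when 4MU was set against control (0.00709% of all tested genes did), 0 when siLuc-LNP was (0.213%) and 0 when siHAS2-LNP was set against siLuc-LNP (0.0425%). An unadjusted p under 0.05 was found for 2, 2 and 0 members, and DESeq2 and limma-voom called 0 in each. Itgal had the smallest adjusted p in both comparisons with control, which share the control mice, at -0.62 with 4MU and 0.62 with siLuc-LNP (adjusted p = 0.494 and 0.447). Tests of whether the CCl4 effect differed with 4MU called 0 members, where 5.67% of all tested genes passed. The nearest was Itgav (-1.08, SE 0.33, adjusted p = 0.0516), 5 members had an unadjusted p under 0.05, and DESeq2 called 2 (Itgav and Itgb1) and limma-voom 2 (Itgav and Lamb3). With library totals 0 were higher and 3 lower, where all tested genes split into 179 higher and 2003 lower, in place of 384 and 416. Itgav also passed when CCl4 + 4MU mouse 3 was left out (-1.12, adjusted p = 0.0496). For siHAS2-LNP relative to siLuc-LNP the interaction called 0, where 0.0354% passed, 1 member, Itga6, had an unadjusted p under 0.05 (-1.59, adjusted p = 0.209), and DESeq2 and limma-voom called 0.

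Other genes of the same pathways were counted from lists, beside the 26.3% of all tested genes that were higher and the 25.6% that were lower in this average. Of 14 tested partners of laminin in the basement membrane, 12 were higher and 1 lower under CCl4 averaged over the arms, with a median log2 fold change of 1.31 against -0.02 over all tested genes. The largest were Nid1 (nidogen, which links laminin to collagen IV, 2.80), Col4a5 (2.71) and Col4a2 (1.78), and Col18a1 was lower (-0.35). Of 26 tested integrin ligands 19 were higher and 1, Vtn (vitronectin), lower, with a median of 0.97, led by Col1a1 (4.06), Mfge8 (an RGD protein of apoptotic cell clearance, 2.74) and Cdh1 (E-cadherin, the ligand of alphaE beta7, 2.60). Of 25 tested adaptor and signalling genes 11 were higher and 4 lower, with a median of 0.20, led by Src (1.69), Vcl (vinculin, 1.05) and Flna (filamin A, 0.94). Of 6 laminin receptors that are not integrins 2 were higher and 2 lower, with Bcam, a receptor of laminin alpha5, at 1.49, Sdc4 at -0.43 and Rpsa at 0.35.

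Among all tested genes 14.4% passed with siHAS2-LNP against CCl4 and 18.3% with 4MU against CCl4. With siHAS2-LNP, 0 of 26 ligands were higher and 8 lower, among them Tnc (-3.08), Thbs1 (-2.58) and Ccn2 (-1.88). Of the basement membrane partners 0 of 14 were higher and 3 lower, Col4a1 (-1.04), Sparc (-0.96) and Col4a2 (-0.82). With 4MU against CCl4, 1 ligand was higher (Vtn, 0.92) and 4 lower, led by Thbs1 (-2.81) and Tnc (-1.76), and 0 of the 14 partners passed. Of the adaptors 3 were higher and 2 lower with 4MU, led by Lims2 (1.31), Zyx (1.04) and Lims1 (-1.01), and 1 was higher and 2 lower with siHAS2-LNP, namely Flna (-1.33), Lims1 (-0.87) and Sharpin (0.56). Kupffer cell and endothelial genes were lower with siHAS2-LNP as well (4 of 6 and 3 of 8), and 0 of both lists passed with 4MU. Across the averaged CCl4 effect 4 of 6 Kupffer cell genes were lower and 1 higher, and 3 of 8 endothelial genes were higher and 1 lower.

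The 5 members that were not tested lay just under or far under the count minimum. Itga10 had a mean of 9.33 counts and Lama3 8.30, near Itgae (10), Itga2 (11.7) and Itgb8 (11.9) on the other side of it. Itga11, a collagen receptor of fibroblasts, had a mean of 2.63 counts and 0 counts in 5 libraries, Itgb6, an epithelial partner of alpha v, 1.59 counts and 0 in 12, and Itgad 0.259 counts and 0 in 22. No difference of Itga11, Itgb6 or Itgad was tested in the main fit, and at these depths a difference would rest on few reads.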

How the data were processed

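The authors deposited raw counts of read pairs per gene (whole numbers, not normalised) for 27 livers. Reads had been trimmed with Trimmomatic 0.39, aligned to GRCm39 (Ensembl 105) with HISAT2 and assigned to genes by featureCounts as pairs, multi-mapping reads left out. The HISAT2 version and strand setting are not given in the sources used here, so reads of a gene and an overlapping antisense gene cannot be told apart. Symbols, types and exon lengths came from GENCODE vM39. In R 4.3.3, edgeR 4.0.16 fitted the 8 groups together after TMM scaling, over 14114 genes averaging 10 or more counts, and groups were compared by quasi-likelihood F tests, with a Benjamini-Hochberg threshold of 0.05. CPM use TMM-scaled totals, and standard errors are the log2 fold change over the root of F. The test was tested on simulated data. The CCl4 effect averaged over arms weights the 4 arms equally. Alternatives were DESeq2 1.42.0, limma-voom (limma 3.58.1) with quality weights, DESeq2 size factors, library totals, other filters, the compared groups alone, a replicate block, a log2 fold change of at least 1, and each mouse left out. One gene that fits the naming rule is not reported here and is in no count of members. Members and gene lists were chosen with earlier results of these data known. In each comparison every member past the threshold was named, where more than 12 passed the 8 with the largest changes individually and the rest by range, and for the lists up to 3 genes with the largest changes. Replicate numbers follow the labels, which name separate mice, and same-group libraries differed beyond sampling noise.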

Additional observations from a re-analysis of the deposited data

Results flagged for a closer look

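Within groups of 4 mice, the gap of the highest or lowest mouse to its neighbour was set against the range of the group. Of 116 such tests 5 exceeded Dixon's 95% critical value, where chance gives about 5%. In CCl4 + 4MU mouse 4, Itga1 was low at 20.6 CPM, while Itgb4 (5.86 CPM) and Lamb1 (26.98 CPM) were high, in the library with 92.5 CPM of Krt19. Lamb1 was low in control mouse 2, at 4.72 CPM. Lamc3 was high in CCl4 + siLuc-LNP mouse 2, at 2.54 CPM, and without this mouse the siLuc-LNP arm no longer called Lamc3 (0.97, adjusted p = 0.216 by edgeR).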

How the results depend on the processing

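Of the 73 member changes past the threshold, 0 changed direction under any alternative. Of the recomputed values, 1359 stayed on their side of the threshold and 112 no longer passed. DESeq2 called 5 members with siHAS2-LNP against CCl4, 1 with siHAS2-LNP against siLuc-LNP under CCl4, 1 between CCl4 + 4MU and CCl4 + siHAS2-LNP and 2 in the 4MU interaction. With siHAS2-LNP against CCl4, DESeq2 also called Itgb3 (-0.93, adjusted p = 0.0476) and Lamb1 (-0.90, adjusted p = 0.0489), which edgeR did not. Itgb3, which the study lists among genes lowered by both treatments, was called by edgeR only with library totals, against CCl4 with either treatment. DESeq2 size factors gave 1 in the 4MU interaction. Limma-voom gave 1 with siHAS2-LNP against CCl4, 1 between the treatments and 2 in the interaction. Library totals gave 10 with 4MU and 5 with siHAS2-LNP against CCl4, 1 (Lamb3) with siLuc-LNP and 3 in the 4MU interaction. In each of these comparisons more of all tested genes were also lower with library totals. With a log2 fold change of at least 1, counts were 11 in the average, 3 in the siHAS2-LNP arm, 2 with 4MU and 1 with siHAS2-LNP against CCl4. Without the low-count filter, 2 were called with siHAS2-LNP against siLuc-LNP under CCl4, 3 between the treatments, 1 in the 4MU interaction and 1 in the siHAS2 interaction. With only the compared groups fitted, the siLuc-LNP arm called 6 and the 4MU interaction 2. The cause of these shifts was not tested.

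Leaving out single mice gave 19 to 22 in the average, 6 to 16 in CCl4 against control, 8 to 13, 8 to 11 and 4 to 7 in the 4MU, siLuc-LNP and siHAS2-LNP arms, 1 to 6 with 4MU and 0 to 3 with siHAS2-LNP against CCl4, 0 to 1 with siHAS2-LNP against siLuc-LNP under CCl4 and 0 to 1 in the 4MU interaction. Replicate numbers did not pair the mice: over 83 pairs with the same number the median correlation was -0.0212, with 18 above 0.1. Over 234 pairs with different numbers it was -0.012, with 68 above 0.1. A replicate block left 1 member with siHAS2-LNP against CCl4 and gave 20 in the average. The 2 CCl4 mice and the depth at Lamc3, Itga2, Itgb4 and Itgb8 limit precision.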
